A study of Mus musculus with 12 samples.

Results

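The interferon regulatory factors (IRFs) are a family of transcription factors, and 8 of their genes, Irf1, Irf2, Irf3, Irf4, Irf5, Irf7, Irf8 and Irf9, were followed across mouse bone marrow macrophages and mesenchymal stem cells (MSCs). The members were chosen by name: the rows of both raw count tables whose Ensembl identifier maps to one of these symbols, 8 of 55487 genes. Bone marrow-derived macrophages (BMMs) came from ovariectomized (OVX) mice, which lack the ovaries and their estrogen, or from sham-operated mice, with 3 libraries in each group. The MSC libraries came from MSCs cultured alone (MSC), MSCs cultured with RAW264.7 cells, a mouse macrophage line, across a transwell membrane (MSC+RAW-TW), and MSCs cultured in the same way with RAW264.7 cells stimulated with lipopolysaccharide (MSC+RAW-LPS-TW), with 2 libraries in each group. All of the mice were of the C57BL/6 strain and 8 weeks old by the labels, and carried no labelled mutation or transgene. The cells came from the limbs, BMMs were grown out of marrow with macrophage colony-stimulating factor, and only the MSC+RAW groups shared medium with RAW264.7 cells.

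IRF proteins bind a shared DNA element, the interferon-stimulated response element (ISRE), and are known for linking the detection of microbes to interferon production and to the response of cells to interferon. IRF3, IRF5 and IRF7 lie dormant in the cytoplasm until Toll-like receptors or nucleic acid sensors lead to their phosphorylation. IRF9 is the DNA-binding part of the complex ISGF3, which interferon receptors activate, IRF1 is induced by interferon gamma and IRF2 competes with it for the same sites, and IRF4 and IRF8 act in blood cells with PU.1 or BATF partners. In bone, IRF8 is known as a brake on the formation of osteoclasts from macrophages.

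In the GENCODE annotation of GRCm38, the sensor-driven members lie at chr7:44997648-45002848 (Irf3, plus strand), chr6:29526625-29541871 (Irf5, plus) and chr7:141262706-141266481 (Irf7, minus), and Irf9 lies at chr14:55603571-55610030 (plus). Irf1 lies at chr11:53770014-53778374, Irf2 at chr8:46739732-46847458, Irf4 at chr13:30749226-30766976 and Irf8 at chr8:120736358-120756694, all on the plus strand. Exons of other genes overlap 14.1% of the exon bases of Irf5 (Tnpo3) and 1.2% to 3.4% of those of Irf1, Irf3, Irf7 and Irf9.

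All 8 members had promoter windows in RefSeq (GRCm38.p6), 11 windows in all, each running from 250 bases before to 50 bases after a transcription start. Both strands were searched for the ISRE core GAAANNGAAA, the gamma-activated site (GAS) of interferon gamma-induced genes, TTCNNNGAA, the ETS-IRF composite element GGAANNGAAA and the kappaB motif, and the ISRE core and the composite element may overlap. The GAS lay in 3 of the 11 member windows (Irf1, Irf2 and Irf8) and in 8.30% of all 32851 windows, and the ISRE core lay in 1 of the 11, that of Irf2, and in 3.44% of all windows. The composite element lay in 1 of the 11 (Irf2) and in 2.72% of all, and the kappaB motif in 2 of the 11 (Irf1 and Irf2) and in 8.46% of all. The stretches from 250 to 61 bases before the start of Irf1 (chr11:53769764-53769953, plus strand), Irf7 (chr7:141266485-141266674, minus strand) and Irf8 (chr8:120736108-120736297, plus strand) are shown to set the GAS of Irf1 and Irf8 beside Irf7, the member with the largest difference between the BMM groups. Capitals mark GAS matches on either strand.
Irf1: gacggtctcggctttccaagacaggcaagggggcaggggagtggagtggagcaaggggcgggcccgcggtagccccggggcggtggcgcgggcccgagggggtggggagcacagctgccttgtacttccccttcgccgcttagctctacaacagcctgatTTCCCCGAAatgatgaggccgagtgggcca
Irf7: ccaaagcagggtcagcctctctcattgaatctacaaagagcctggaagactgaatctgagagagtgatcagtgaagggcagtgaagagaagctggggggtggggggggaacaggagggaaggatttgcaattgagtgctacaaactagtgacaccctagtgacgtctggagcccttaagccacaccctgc
Irf8: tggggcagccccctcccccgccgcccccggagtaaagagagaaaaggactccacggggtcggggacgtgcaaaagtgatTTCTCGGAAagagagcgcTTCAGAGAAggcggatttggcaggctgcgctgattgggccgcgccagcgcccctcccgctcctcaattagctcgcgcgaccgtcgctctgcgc
Irf1 had 1 GAS in this stretch and Irf8 had 2. No GAS letters were found in the Irf7 stretch, which says nothing of other sites or of sequence farther away.

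The libraries held between 17012923 and 45367105 counts. Within groups, the counts of sham replicates 2 and 3 differed by more than sampling noise, but by a similar ratio at low and high counts. Their median chi-square over genes, relative to that of sampling noise alone, was 2.50 at low and 2.81 at high counts. For both MSC+RAW-TW libraries this ratio was 3.07 and 3.26. A pair was taken as near-identical where the ratio at high counts was at most 1.5 times that at low counts. In the other pairs the ratio at high counts was between 18.51 and 120.59. Each near-identical pair was counted as 1 sample, so n = 3 for OVX, 2 for sham, 2 for MSC, 1 for MSC+RAW-TW and 2 for MSC+RAW-LPS-TW. No label says that libraries came from separate animals or cultures, so p-values measure only the spread between these samples. For MSC+RAW-LPS-TW, replicates 2 and 3 are the numbers in the column names, and which labelled sample each one is could not be told.
The macrophage markers fitted the BMM label, with 10 of 10 at 1 CPM (counts scaled to library depth) or more. The libraries labelled MSC held them too: 10 of 10 markers in each of the 3 groups, with summed levels of 26682 to 26844 CPM in MSC, 33157 to 33658 CPM in MSC+RAW-TW and 14223 to 14650 CPM in MSC+RAW-LPS-TW. Of these sums, Lyz2 alone made up 21646, 26454 and 9580 CPM on average, in the same order of groups. The median level of the 10 markers was 595, 608 and 500 CPM. Of 12 MSC and stromal markers, 11 to 12 were at 1 CPM or more in every group, and they summed to 3243 to 3857 CPM in the MSC libraries against 6550 to 7765 CPM in the BMM libraries. Of these sums, Col1a1, Col1a2 and Cxcl12 made up 1969, 3015 and 1052 CPM in OVX and 456, 903 and 341 CPM in MSC on average. The median level of the 12 markers was 136 to 164 CPM in the MSC groups and 119 to 126 CPM in the BMM groups. The part of these cells in the IRF values below was not tested, and in such bulk samples fewer cells of a type and less RNA per cell cannot be told apart.
The relative level of genes rich in GC differed between libraries, and whether this arose in the cells or in the sequencing was not tested. Across genes, Spearman's rho of GC content with log2 CPM relative to the experiment's mean lay between -0.58 and -0.33 in OVX and between 0.21 and 0.49 in sham, and between 0.37 and 0.38 in MSC+RAW-TW against -0.30 to -0.13 in the other MSC libraries. The exons of the members had a GC content between 45.9% (Irf2) and 57.8% (Irf8). Values after removal of the GC and length trends are therefore given beside the results they alter.

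Levels were first compared between members within a library, in TPM, a transcript level that divides counts by exon length and scales them to the library. In OVX BMMs the order of mean TPM was Irf5 (96.1), Irf8 (38.7), Irf3 (31), Irf1 (29.9), Irf7 (24.2), Irf9 (17.3), Irf2 (10.9) and Irf4 (0.399). The ranges of Irf8, Irf3, Irf1 and Irf7 each overlapped the next in this order, whereas the other neighbours did not overlap. In sham BMMs Irf7 moved from the fifth to the second place (82.4 TPM), behind Irf5 (143 TPM) and above Irf8 (46.3 TPM), with no overlap between these 3 genes. In all 3 MSC groups Irf7 came first and Irf5 second in mean TPM, at 416 and 154 in MSC, 1006 and 170 in MSC+RAW-TW, and 592 and 60.9 in MSC+RAW-LPS-TW. Irf4 was last in each of the 5 groups, between 0.0762 and 1.12 TPM.

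As a share of the summed TPM of the 8 members, Irf7 held 8.68%, 10.02% and 10.3% in the OVX libraries and 18.5%, 25.4% and 25.5% in sham. It held 56.4% and 55.9% in MSC, 75.4% in both MSC+RAW-TW libraries, and 72.7% and 78.3% in MSC+RAW-LPS-TW. The share of Irf7 was thus lowest in OVX, with no overlap between OVX and sham or between MSC and the other MSC groups. Irf5 was the largest member in the BMM libraries, at 36.8% to 42.6% in OVX and 33.9% to 42.1% in sham, which overlap. In the MSC libraries Irf5 held 20.7% and 20.9% of the family in MSC, 12.8% and 12.7% in MSC+RAW-TW, and 8.67% and 7.27% in MSC+RAW-LPS-TW, with no overlap between groups. The ratio of Irf7, whose gene is itself induced by interferon, to Irf3, which is made without induction, was between 0.735 and 0.827 in OVX and between 2.20 and 2.38 in sham, in TPM. In the MSC groups this ratio was 18.2 to 19.6 in MSC, 38.1 to 39.2 in MSC+RAW-TW and 33.1 to 42.8 in MSC+RAW-LPS-TW. BMM and MSC libraries come from separate count tables, and their levels are set side by side without a test.

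**Figure D1:**
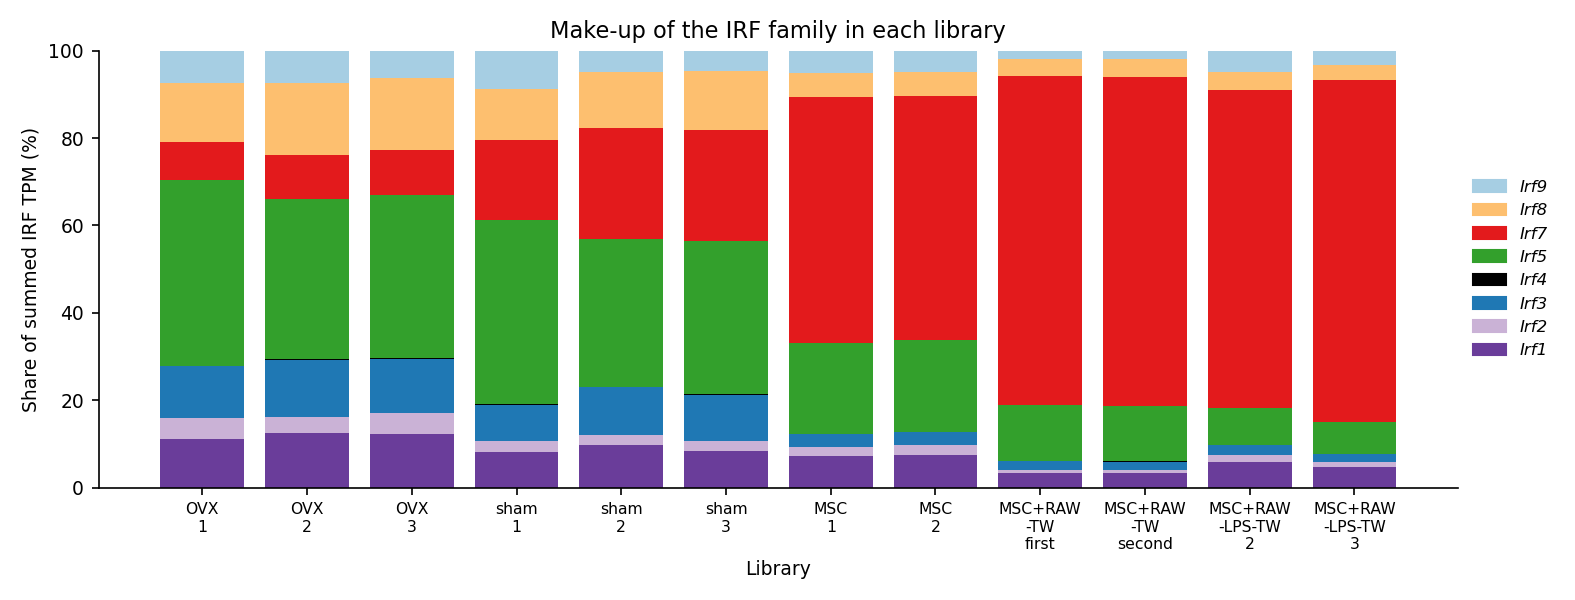
Share of each IRF gene in the summed TPM of the 8 genes (y axis, percent), 1 stacked bar per library (x axis, replicate number or, for MSC+RAW-TW, first and second column). Irf5 (green) takes the largest share in the 6 BMM libraries and Irf7 (red) takes 55.9% to 78.3% in the 6 MSC libraries.

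The first comparison asked how the family differed between BMMs of OVX and sham mice. Irf7 fell 4.37-fold in OVX and passed both limits set for a call, which were a 2-fold difference and an adjusted p of 0.05 (edgeR, Benjamini-Hochberg). It was 1 of 8 members called lower, against 3.16% of the 15778 genes tested, and 0 of 8 were called higher, against 5.90%, also with DESeq2. At an unadjusted p under 0.05, 6 of 8 members were lower and 0 higher, and the share of all genes at that limit is not given here. With the GC and length trends removed, 347 genes were called lower and 231 higher, in place of 499 and 931, and Irf7 was again the 1 member called. Without the fold limit, Irf5 and Irf9 fell as well, so that 3 of 8 members were lower (background 6.19%) and 0 of 8 higher (background 8.03%). With the GC and length trends removed, neither Irf5 (-0.55, adjusted p = 0.0902) nor Irf9 (-0.85, adjusted p = 0.0808) passed the test in edgeR. The fitted difference was below 0 for 8 of 8 members, with a median log2 fold change of -0.74 against -0.01 over all genes tested, or -0.51 with the GC and length trends removed. The 10 macrophage markers, all at 1 CPM or more in both groups, summed to 40253 to 44869 CPM in OVX and 53933 to 58399 CPM in sham, of which Lyz2 made up 37702 and 49936 CPM on average. They did not share a direction: Mrc1 was called higher in OVX (2.01, adjusted p = 0.00482), Adgre1 (-1.18, adjusted p = 0.0468) and Fcgr1 (-1.11, adjusted p = 0.00877) were called lower, and these were named after their values were seen. Neutrophil markers, 6 of 7 at 1 CPM or more in both groups, summed to 1097 to 1203 CPM in OVX and 713 to 860.2 CPM in sham. Of these sums, S100a8 and S100a9 made up 472 and 631 CPM in OVX and 327 and 393 CPM in sham on average. The median level of the 7 markers was 11.9 CPM in OVX and 14.6 CPM in sham. The part of these cells in the IRF differences was not tested.

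Among the members activated by sensors, Irf7, the amplifier of type I interferon production, had 29.8, 40.0 and 42.7 CPM in the OVX libraries and 135, 193 and 191 CPM in the sham libraries. All OVX libraries lay below all sham libraries, and the means were 37.5 ± 6.83 CPM (SD, n = 3) and 164 ± 39.9 CPM (SD, n = 2). The log2 fold change was -2.13 (SE 0.23, adjusted p = 0.00482). With the GC and length trends removed it was -1.75 (adjusted p = 0.00349), and over all alternatives it stayed between -2.36 and -1.75, with an adjusted p of at most 0.0431. Irf5, which drives inflammatory cytokine genes downstream of MyD88, had 112, 113 and 119 CPM in OVX and 237, 198 and 201 CPM in sham. These groups did not overlap, and the log2 fold change was -0.93 (SE 0.17, adjusted p = 0.0138). For Irf5, 411 of 2905 exon bases (14.1%) overlap Tnpo3 on the other strand, and the strand setting of the counting is not given in the sources used here. With the GC and length trends removed the difference of Irf5 was -0.55 (adjusted p = 0.0902), and without OVX replicate 2 it was -0.91 (adjusted p = 0.0851). Irf3, the first responder to TRIF, MAVS and STING signals, had 36.9, 47.5 and 47.1 CPM in OVX against 56.1, 75.0 and 73.0 CPM in sham. Although the Irf3 groups did not overlap, the log2 fold change of -0.57 (SE 0.21) did not pass the test (adjusted p = 0.101). Its adjusted p was 0.0273 with the sham pair kept apart as replicates, 0.00252 with the pair apart and the replicate number as a block, 0.0419 without sham replicate 1 and 0.509 with the GC and length trends removed, where the difference was -0.18.

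Irf9, the DNA-binding part of ISGF3, had 36.5, 41.9 and 36.4 CPM in OVX and 92.3, 52.3 and 50.3 CPM in sham. The groups did not overlap, but sham replicate 1 was far above the near-identical sham pair. The log2 fold change was -0.91 (SE 0.25, adjusted p = 0.0484), and without sham replicate 1 it was -0.43 (adjusted p = 0.191). The adjusted p of Irf9 also rose above the limit without OVX replicate 1 (0.143), 2 (0.135) or 3 (0.103), without sham replicate 2 (0.0538) and with the GC and length trends removed (0.0808) or a block for the series of column names (0.0758), and was 0.0452 without sham replicate 3.

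Irf1, the interferon gamma-induced activator, had 40.1, 52.6 and 53.7 CPM in OVX and 62.3, 78 and 65.9 CPM in sham. Its groups did not overlap, and its log2 fold change was -0.46 (SE 0.20, adjusted p = 0.158), or -0.13 (adjusted p = 0.627) with the GC and length trends removed and -0.50 (adjusted p = 0.0114) with the sham pair kept apart and the replicate number as a block. Irf2, its competitor, had 32.3, 28.6 and 38.4 CPM in OVX and 35.9, 34.9 and 32.3 CPM in sham. The Irf2 groups overlapped, with a log2 fold change of -0.07 (SE 0.19, adjusted p = 0.836), or -0.46 (adjusted p = 0.163) after removal of the GC and length trends.

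Irf8, needed for the monocyte and macrophage lineage, had 85.6, 123 and 127 CPM in OVX and 158, 183 and 188 CPM in sham. The groups did not overlap, and the log2 fold change of -0.62 (SE 0.22) did not pass the test (adjusted p = 0.0982). It moved to -0.26 (adjusted p = 0.357) with the GC and length trends removed, and to -0.65 (adjusted p = 0.0291) with the sham pair kept apart as replicates, and its adjusted p was 0.0027 with the pair apart and the replicate number as a block, and 0.0461 without the filter on low counts. Irf4, known from lymphocytes and from alternatively activated macrophages, was near the lower end of detection, with 27, 29 and 28 counts in OVX (0.822, 0.758 and 0.829 CPM) and 62, 11 and 36 counts in sham (1.61, 0.696 and 1.74 CPM). Sham replicate 2 lay below all OVX libraries, and the log2 fold change was -0.86 (SE 0.38, adjusted p = 0.164). It was -1.06 without sham replicate 2 and -0.57 without sham replicate 3.

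**Figure D2:**
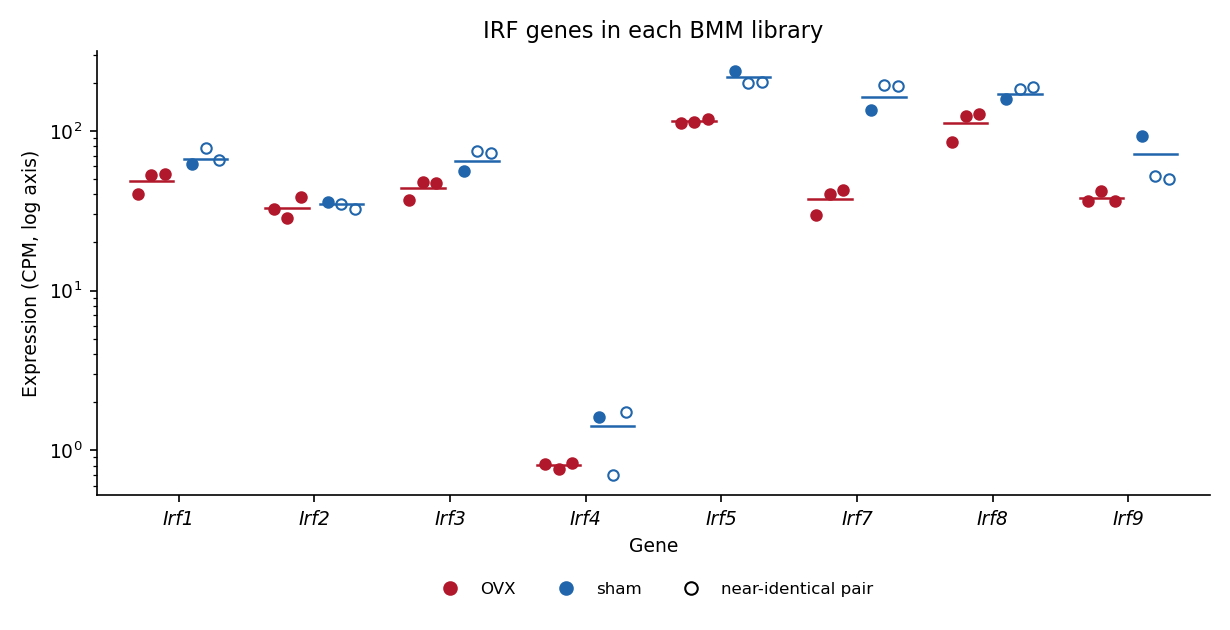
CPM (y axis, log scale) of the 8 IRF genes (x axis) in each OVX (red) and sham (blue) library. Horizontal lines are means over samples and open symbols mark the near-identical sham pair. Irf7 shows the widest gap, with 29.8 to 42.7 CPM in OVX and 135 to 193 CPM in sham.

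The MSC experiment asked how the family differed in MSCs exposed to RAW264.7 cells, with and without stimulation of the latter. The 3 comparisons share samples, so they are not independent of each other, and the MSC+RAW-TW group counts as 1 sample whose spread was assumed to be that of the other groups. In MSC+RAW-TW against MSC, Irf7 rose 3.15-fold and was 1 of 8 members called higher, against 7.35% of the 18806 genes tested, and 0 of 8 were called lower, against 11.1%, also with DESeq2 and at an unadjusted p under 0.05. Without the fold limit, 4 of 8 members rose (Irf3, Irf5, Irf7 and Irf8, background 14.8%) and 0 of 8 fell (background 16.7%). With the GC and length trends removed, the rises of Irf3, Irf5, Irf7 and Irf8 were 0.11, 0.01, 1.18 and 0.29 on the log2 scale. In MSC+RAW-LPS-TW against MSC, Irf4 was 1 of 8 called lower (background 5.40%) and 0 of 8 were called higher in edgeR or DESeq2 (background 6.36%), with 1 higher and 3 lower at an unadjusted p under 0.05. Without the fold limit, Irf7 was 1 of 8 higher (background 11.7%), and Irf4 and Irf5 were 2 of 8 lower (background 10.3%).
In MSC+RAW-LPS-TW compared with MSC+RAW-TW, Irf4 and Irf5 were 2 of 8 called lower (background 13.1%) and 0 of 8 were called higher (background 17.6%), also with DESeq2 and at an unadjusted p under 0.05. Without the fold limit, 5 of 8 were lower (Irf3, Irf4, Irf5, Irf7 and Irf8, background 20.5%) and 0 of 8 higher (background 24.0%). With the GC and length trends removed, these 5 differences were -0.23, -3.72, -0.94, -0.29 and -0.44 on the log2 scale, in the order named. The median log2 fold change of the 8 members was 0.57 in MSC+RAW-TW against MSC, -0.12 in MSC+RAW-LPS-TW against MSC and -0.76 in MSC+RAW-LPS-TW compared with MSC+RAW-TW. The medians over all genes tested were -0.08, -0.01 and 0.08. The medians of the 8 members after removal of the GC and length trends were 0.16, -0.14 and -0.36. Neutrophil markers summed to 11.7 to 16.4 CPM in MSC, 31.1 to 34.0 CPM in MSC+RAW-TW and 370 to 556 CPM in MSC+RAW-LPS-TW, of which S100a8 and Camp made up most, while S100a9, Ltf and Mpo were at or near 0 in all 3 groups. Their part in the IRF values was not tested.

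Irf7 had 595 and 594 CPM in MSC, 1856 and 1832 CPM in MSC+RAW-TW, and 880.3 and 1328 CPM in MSC+RAW-LPS-TW. No library of one group overlapped another group, and the MSC+RAW-LPS-TW libraries lay between the others. The log2 fold change was 1.66 (SE 0.23, adjusted p = 0.00137) in MSC+RAW-TW against MSC and 0.89 (SE 0.19, adjusted p = 0.0065) in MSC+RAW-LPS-TW against MSC. Against MSC+RAW-TW, Irf7 in MSC+RAW-LPS-TW differed by -0.76 (SE 0.23, adjusted p = 0.02). After removal of the GC and length trends these values were 1.18 (adjusted p = 0.00406), 0.89 (adjusted p = 0.00252) and -0.29 (adjusted p = 0.270). Without MSC replicate 1 or 2 the adjusted p of MSC+RAW-LPS-TW against MSC was 0.0835 and 0.0791, and that against MSC+RAW-TW was 0.0531 and 0.0528, or 0.0562 with those groups alone in the fit. Without MSC+RAW-LPS-TW replicate 2, the lower of that pair, the log2 fold change against MSC was 1.13 and that against MSC+RAW-TW was -0.49, and without replicate 3 they were 0.57 and -1.09.

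Irf5 had 168 and 171 CPM in MSC, 243 and 237 CPM in MSC+RAW-TW, and 80.7 and 94.9 CPM in MSC+RAW-LPS-TW. The 3 groups did not overlap and had the order MSC+RAW-TW, MSC, MSC+RAW-LPS-TW. Of the 10 macrophage markers, 5 had the same order of mean CPM (Lyz2, Csf1r, Cd68, Fcgr1 and Tyrobp), 4 had the opposite order (Adgre1, Itgam, Cd14 and Ptprc) and 1 had neither (Mrc1), and their part in the values of Irf5 was not tested. In MSC+RAW-LPS-TW Irf5 fell 1.93-fold against MSC (log2 fold change -0.95, SE 0.15, adjusted p = 0.000704) and 2.77-fold against MSC+RAW-TW (-1.47, SE 0.17, adjusted p = 7.91e-05). With the GC and length trends removed the latter was -0.94 (adjusted p = 0.000789), under the fold limit. The rise of Irf5 in MSC+RAW-TW against MSC, 0.52 (SE 0.18, adjusted p = 0.0430), was 0.01 (adjusted p = 0.962) with these trends removed, and its adjusted p was 0.210 and 0.199 without MSC replicate 1 or 2 and 0.0606 without the first MSC+RAW-TW library.

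Irf3 had 27.7 and 29.8 CPM in MSC, 43.1 and 43.9 CPM in MSC+RAW-TW, and 24.3 and 28.3 CPM in MSC+RAW-LPS-TW. MSC+RAW-TW stood above the other groups, which overlapped. Its log2 fold change was 0.62 (SE 0.19, adjusted p = 0.0288) in MSC+RAW-TW against MSC, -0.75 (SE 0.19, adjusted p = 0.00795) in MSC+RAW-LPS-TW compared with MSC+RAW-TW, and -0.13 (adjusted p = 0.643) in MSC+RAW-LPS-TW against MSC. After removal of the GC and length trends the first and second values were 0.11 (adjusted p = 0.677) and -0.23 (adjusted p = 0.298). The adjusted p of the first was 0.157 and 0.102 without MSC replicate 1 or 2.

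Irf8 showed the same order of groups as Irf3, with 109 and 112 CPM in MSC, 177 and 182 CPM in MSC+RAW-TW, and 91.5 and 115 CPM in MSC+RAW-LPS-TW. It rose by 0.71 on the log2 scale (SE 0.18, adjusted p = 0.0150) in MSC+RAW-TW against MSC and differed by -0.82 (SE 0.18, adjusted p = 0.00443) in MSC+RAW-LPS-TW compared with MSC+RAW-TW. These were 0.29 (adjusted p = 0.229) and -0.44 (adjusted p = 0.0554) with the GC and length trends removed, and the adjusted p of the first was 0.0980 and 0.0865 without MSC replicate 1 or 2. MSC+RAW-LPS-TW and MSC overlapped in Irf8, with a log2 fold change of -0.10 (adjusted p = 0.714). Dendritic cell markers summed to 57.9 to 61.7 CPM in MSC, 90.8 to 91.5 CPM in MSC+RAW-TW and 58.7 to 62.6 CPM in MSC+RAW-LPS-TW, highest in MSC+RAW-TW as Irf8 was. Itgax, which macrophages also express, made up 55.9, 87.7 and 56.5 CPM of these sums on average. In MSC+RAW-TW 6 of the 8 markers were at 0 (Flt3, Xcr1, Clec9a, Cd209a, Siglech and Ccr9), and Zbtb46 had 3.45 CPM.

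Irf4 had 1.35 and 1.53 CPM in MSC, 2.49 and 2.85 CPM in MSC+RAW-TW, and 0.18 and 0.191 CPM in MSC+RAW-LPS-TW. The last 2 values stand for 6 counts in each library, against 66 and 52 counts in MSC and 102 and 99 counts in MSC+RAW-TW. Irf4 in MSC+RAW-LPS-TW was 7.63-fold lower than in MSC (log2 fold change -2.93, SE 0.57, adjusted p = 0.00328) and 14.33-fold lower than in MSC+RAW-TW (-3.84, SE 0.62, adjusted p = 0.000604). Removal of the GC and length trends gave -2.90 and -3.72, and over all alternatives the values stayed between -3.02 and -2.84 and between -3.91 and -3.72. Markers of B lymphocytes and plasma cells, which also use Irf4, summed to 0.265 to 1.06 CPM in MSC, 0.0733 to 0.403 CPM in MSC+RAW-TW and 1.05 to 1.24 CPM in MSC+RAW-LPS-TW. MSC+RAW-TW against MSC gave 0.91 (SE 0.55, adjusted p = 0.228).

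Irf1, Irf2 and Irf9 did not pass the test in the MSC comparisons, although with the near-identical pair kept apart the adjusted p was 0.0447 for Irf2 in MSC+RAW-TW against MSC and 0.0429 for Irf9 in MSC+RAW-LPS-TW compared with MSC+RAW-TW. Irf1 had 81.4 and 82.4 CPM in MSC, 85.5 and 83.2 CPM in MSC+RAW-TW, and 75.6 and 85.0 CPM in MSC+RAW-LPS-TW. The log2 fold changes of Irf1 were 0.07, -0.03 and -0.09, and their signs turned with the GC and length trends removed (-0.29, 0.01 and 0.30). The MSC+RAW-LPS-TW libraries of Irf1 spanned the values of MSC. Irf2 had 41.2 and 47.1 CPM in MSC, 36.9 and 33.3 CPM in MSC+RAW-TW, and 35.5 and 34.5 CPM in MSC+RAW-LPS-TW. MSC stood above the other groups, which overlapped, with log2 fold changes of -0.30 (adjusted p = 0.236) and -0.33 (adjusted p = 0.147) against it. With the GC and length trends removed Irf2 differed by 0.21 in MSC+RAW-TW against MSC, opposite in sign, and by -0.54 (adjusted p = 0.0252) in MSC+RAW-LPS-TW compared with MSC+RAW-TW, where the fit without this step gave -0.03. Irf9 had 76.5 and 72.1 CPM in MSC, 66.8 and 66.0 CPM in MSC+RAW-TW, and 85.0 and 76.6 CPM in MSC+RAW-LPS-TW. The Irf9 differences lay between -0.14 and 0.26, with adjusted p from 0.253 to 0.625, although its groups did not overlap.

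**Figure D3:**
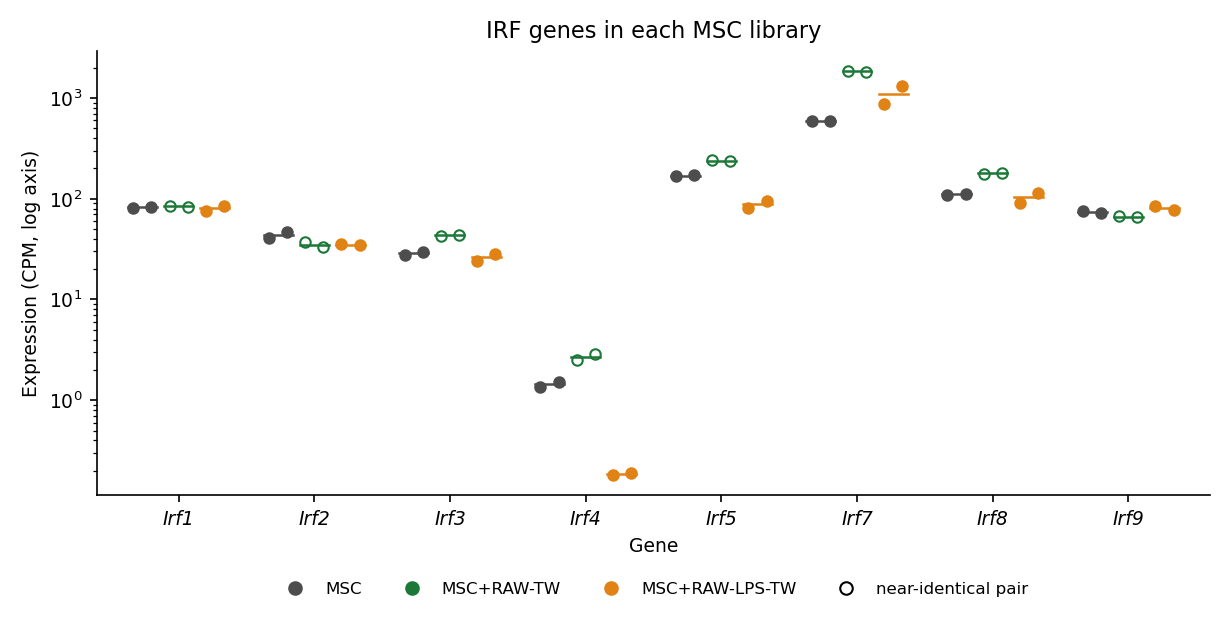
CPM (y axis, log scale) of the 8 IRF genes (x axis) in each MSC (grey), MSC+RAW-TW (green) and MSC+RAW-LPS-TW (orange) library, with group means as lines and the near-identical pair as open symbols. Irf7 is highest in MSC+RAW-TW, at 1832 and 1856 CPM, and Irf4 is lowest in MSC+RAW-LPS-TW, at 0.18 and 0.191 CPM.

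**Figure D4:**
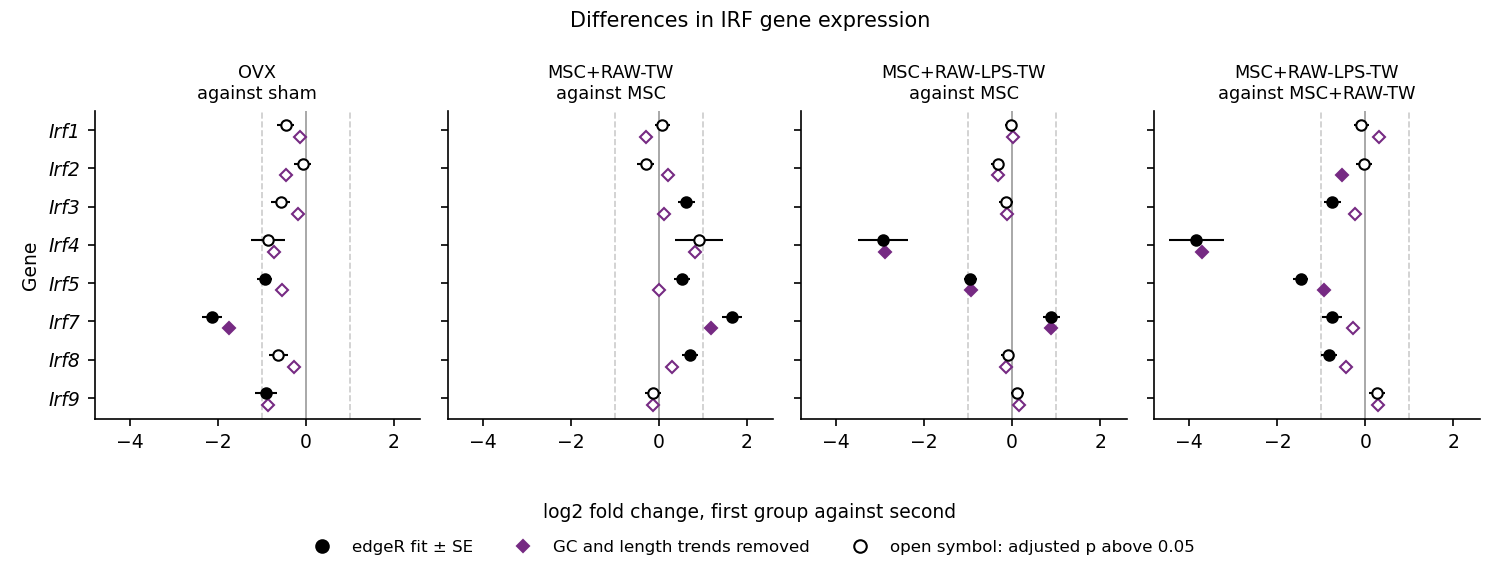
Log2 fold change (x axis) of each IRF gene (y axis) in the 4 comparisons, from the edgeR fit with its SE (circles) and with GC and length trends removed (diamonds), where filled symbols have an adjusted p of at most 0.05 and dashed lines mark a fold of 2. Irf7 in OVX against sham (-2.13 and -1.75) and Irf4 in MSC+RAW-LPS-TW compared with MSC+RAW-TW (-3.84 and -3.72) keep a filled symbol past the dashed lines in both.

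The genes around the family were grouped into 7 lists by role, and their counts are to be read against the share of all genes called in the same comparison. In OVX against sham that share was 3.16% lower and 5.90% higher. The list with the largest count was that of target genes of IRF3, IRF7 and ISGF3, with 7 of 10 called, all lower, and a median log2 fold change of -1.32 (8 lower with the GC and length trends removed, 4 without OVX replicate 2). Its largest differences were in Ccl5, a chemokine gene (-2.05, adjusted p = 0.00293), Isg15, a ubiquitin-like modifier (-2.03, adjusted p = 0.00562), and Oas1a (-1.93, adjusted p = 0.00925). Of 7 genes of the JAK-STAT relay, 4 were called, all lower, among them Usp18, a negative regulator of the type I interferon receptor (-1.74, adjusted p = 0.00329), Socs1 (-1.21, adjusted p = 0.0381) and Stat2 (-1.19, adjusted p = 0.00877). Without OVX replicate 2 this list held 1 called gene.
Of 10 IRF partners and corepressors, 4 were called, all lower, with a median of -0.80: Batf3 (-2.34, adjusted p = 0.00293), Batf (-2.07, adjusted p = 0.00329), Batf2 (-1.62, adjusted p = 0.0128) and Spi1, which encodes PU.1 (-1.46, adjusted p = 0.00812). Among 12 target genes of IRF1 and IRF8, of which 11 were tested, 3 were called, all lower, Nos2 (-2.60, adjusted p = 0.00788), Cd274 (-1.69, adjusted p = 0.00877) and Tap1 (-1.10, adjusted p = 0.0210), with a median of -0.91. That count was 5 without sham replicate 1 and 1 without OVX replicate 2. Of 12 adaptors and kinases, Ticam2 (-1.17, adjusted p = 0.00877) and Ikbke (-1.08, adjusted p = 0.0110) were called lower, with a median of -0.50. That count was 1 with the GC and length trends removed and 0 without OVX replicate 2. Among the 7 receptors and sensors (median 0.17) and the 8 interferons and receptors, 5 of them tested (median -0.14), 0 genes were called in edgeR or DESeq2, with 2 and 3 at an unadjusted p under 0.05. For the receptors and sensors the alternatives did not share a direction, with 1 called higher when the sham pair was kept apart, with or without a block, and without sham replicate 1, and 1 called lower with the GC and length trends removed. The all-gene median in this comparison was -0.01.

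In MSC+RAW-TW against MSC, where Irf7 was highest, the targets of IRF3, IRF7 and ISGF3 were called in both directions, as were all genes (7.35% higher, 11.1% lower). Of 10, 1 was called higher, Ccl5 (2.14, adjusted p = 0.00121), and 3 were called lower: Ifit2 (-1.49, adjusted p = 0.00174), Ifit1 (-1.14, adjusted p = 0.00214) and Mx1 (-1.02, adjusted p = 0.0057). The median was -0.19, and with the GC and length trends removed 1 was higher and 1 lower. Of 7 receptors and sensors, 4 were called lower, Cgas (-1.30), Tlr9 (-1.29), Tlr3 (-1.25) and Ifih1 (-1.06), a count of 2 with those trends removed and of 2 without MSC replicate 2, with a median of -1.06. Usp18 was the 1 of 7 called in the JAK-STAT relay (1.21, adjusted p = 0.00233, list median 0.05). Batf (1.36, adjusted p = 0.0026) and Spi1 (1.10, adjusted p = 0.00188) were the 2 of 10 partners called higher (median 0.33), against 0 in edgeR with the GC and length trends removed.
Among 12 targets of IRF1 and IRF8 (median -0.33), Psmb8 (1.05, adjusted p = 0.00208) was called higher, and Cd274 (-1.13, adjusted p = 0.00535) and Ciita were called lower. This list held 2 lower and no higher call with the GC and length trends removed. Ciita, the regulator of MHC class II genes, had no counts in MSC+RAW-TW and 0.378 CPM in MSC, at least 4.74-fold lower against a floor of 3 counts per library. The 12 adaptors and kinases (median -0.01) and the 8 interferons and receptors (5 tested, median 0.26) held 0 called genes in edgeR or DESeq2, with 4 and 3 at an unadjusted p under 0.05. The all-gene median was -0.08.

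In MSC+RAW-LPS-TW against MSC, 6 of 10 targets of IRF3, IRF7 and ISGF3 were called, all higher, with a median of 1.43, against 6.36% of all genes called higher and 5.40% lower. The largest differences were Cxcl10 (5.62, adjusted p = 7.80e-09), Ccl5 (3.22, adjusted p = 1.27e-06) and Rsad2 (1.68, adjusted p = 1.92e-05). Targets of IRF1 and IRF8 were also called for 6 of 12, all higher, with a median of 1.30. They included Nos2, the inducible nitric oxide synthase gene, with 1.79 CPM in MSC and 864 CPM in MSC+RAW-LPS-TW (8.89, adjusted p = 3.96e-09), and Cd274 (3.23, adjusted p = 4.36e-07). Il12b, known as a target of IRF8 in macrophages, had no counts in MSC and 3.90 CPM in MSC+RAW-LPS-TW, at least 52.3-fold higher against the same floor.
Of the 7 JAK-STAT relay genes 4 were called, all higher, among them Socs1 (3.4), Jak2 (3.15) and Usp18 (1.58). Among 7 receptors and sensors (median -0.58), Tlr9 (-2.63) and Tlr4, the receptor of lipopolysaccharide (-1.16), were called lower and Ifih1 (1.29) higher. Among 12 adaptors and kinases (median 0.23), Ticam2 (1.40) was called higher and Sting1 (-1.13) lower. Batf (2.05) and Ikzf1 (1.03) were the 2 of 10 partners called higher (median 0.42), a count of 1 without MSC replicate 1 or without MSC+RAW-LPS-TW replicate 2. Ifnar2, a chain of the type I interferon receptor, was the 1 of 8 interferons and receptors called (1.31, adjusted p = 0.000145, list median 0.39 over 5 tested). The all-gene median was -0.01.

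In MSC+RAW-LPS-TW compared with MSC+RAW-TW, where 5 of 8 IRF genes were lower without the fold limit, 7 of 10 targets of IRF3, IRF7 and ISGF3 were called, all higher (median 1.12, all-gene median 0.08). With the GC and length trends removed, Irf3, Irf7 and Irf8 differed by only -0.23, -0.29 and -0.44, and Irf4 and Irf5 by -3.72 and -0.94. In this comparison 17.6% of all genes were called higher and 13.1% lower, so that 1 called gene of 10 or 3 of 12 lies near or below the background. Cxcl10 (5.37, adjusted p = 1.47e-07), Ifit1 (2.80, adjusted p = 3.07e-06) and Rsad2 (2.67, adjusted p = 7.57e-06) differed most. Of 12 targets of IRF1 and IRF8, 7 were called, all higher (median 2.87, or 2.57 with genes absent from MSC+RAW-TW set to their bound). Among these Nos2 differed by 9.69 (adjusted p = 5.99e-08), and Il12b and Ciita, with no counts in MSC+RAW-TW, were at least 48.9-fold and 5.92-fold higher.
Jak2 (3.54) and Socs1 (3.35) were the 2 of 7 relay genes called, both higher (median 0.59). Of the receptors and sensors, Ifih1 (2.35), Ddx58 (1.60) and Tlr3 (1.27) were called higher and Tlr9 (-1.34) lower (median 0.53). Ticam2 (1.47) was called higher, and Sting1 (-1.88) and Slc15a4 (-1.29) lower, among the adaptors and kinases (median 0.13), and with the GC and length trends removed 2 were lower and none higher. Ikzf1 (1.27) was the 1 of 10 partners called (median 0.12), against 3 higher with the GC and length trends removed. Ifnar2 (1.69) and Ifnar1 (1.12) were called higher and Il10rb (-1.15) lower among the interferons and receptors (median 0.28), against 1 higher and 2 lower with those trends removed.

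**Figure D5:**
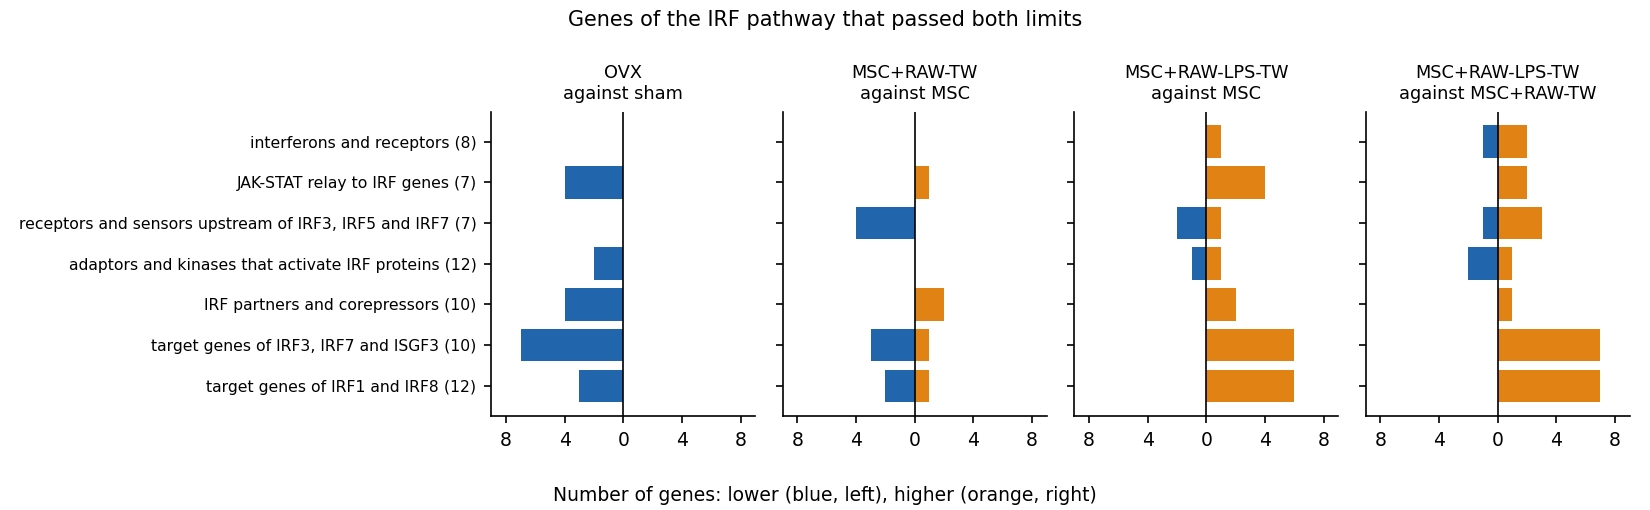
Number of genes (x axis) called lower (blue, to the left) and higher (orange, to the right) in 7 lists of the IRF pathway (y axis, list size in brackets) in the 4 comparisons. Targets of IRF3, IRF7 and ISGF3 count 7 lower in OVX against sham and 7 higher in MSC+RAW-LPS-TW compared with MSC+RAW-TW.

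Neither interferon gene on the lists passed the filter on low counts. Ifnb1, encoding interferon beta, had a mean of 0.0648 CPM in OVX, 0.182 CPM in sham, 0.0702 CPM in MSC and no counts in MSC+RAW-TW or MSC+RAW-LPS-TW. Ifng, encoding interferon gamma, had at most 0.0300 CPM in any group. At this depth no difference in these genes could be shown.

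Genes whose pattern was most like that of a member were sought by Pearson's r of log2 CPM, centred within each experiment, over 10 samples and 9724 genes. These values are descriptions: the samples share groups, depth and the GC trend. Irf7 was most like Ncf4 (r = 0.996), Spi1 (0.995) and Lgals3bp (0.993). For Irf5 they were Ccl8 (0.993), Pitpna (0.990) and Vsir (0.989), and for Irf4 Cd300c2 (0.996), Dpp7 (0.994) and Mbp (0.993). Irf3 and Irf8 shared Map1s (0.988 and 0.990) among their 3 nearest genes, beside Pex6 (0.989) and Plekhj1 (0.984) for Irf3 and Psmg4 (0.983) and Phf23 (0.982) for Irf8. Irf9 was most like Armc7 (0.990), then Cables2 (0.944) and Sf1 (0.943), and Irf1 was most like Ogdh (0.972), Pgghg (0.968) and Rhbdd2 (0.965). Irf2 had the least close neighbours of the 8 members, Sem1 (0.873), Psmg1 (0.845) and Sulf2 (0.843).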

How the data were processed

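RNA-seq was used in 12 libraries, 6 of BMMs and 6 of MSCs. Per the methods and labels, the authors isolated poly(A) RNA, prepared libraries with a directional kit, trimmed read pairs with Trim Galore 0.6.7, mapped them to GRCm38 with HISAT2 2.1.0 and counted them with featureCounts 2.0.1. The deposited values are raw counts per Ensembl gene, neither normalized nor filtered, with replicates apart, and the deposited exon length of each gene was used for TPM and length trends. Whether the counting used strand is not given in the sources used here. Even values made up 60.0% to 71.4% of the counts from 1 to 20, so counts are not independent molecules. Depth ran from 17012923 to 45367105 counts.

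GENCODE annotation of GRCm38 named 55141 of 55487 genes. The MSC+RAW-TW columns carry one name and the MSC+RAW-LPS-TW columns are numbered 2 and 3, unlike their labels, so these columns were matched to a group only. Near-identical libraries were found by a chi-square over genes with at least 20 counts and summed. EdgeR 4.0.16 (R 4.3.3) used TMM, filterByExpr and the two-sided quasi-likelihood F-test with Benjamini-Hochberg adjustment over all genes tested. The MSC fit held all 3 groups. The limits of a call were a 2-fold difference and an adjusted p of 0.05. The SE is the log2 fold change divided by the root of F. The fit was also run on simulated data, and the outcome is not given here. The alternatives were RLE normalization, DESeq2 1.42.0, no filter on low counts, no fold limit, near-identical libraries apart, leaving out each library, a block for the replicate number, only the 2 groups compared, and lowess trends (span 0.3) on GC content and length removed. Counts of called genes per list under these, and a block for the 2 series of library identifiers in the column names, were added after the data were seen.

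The members, lists and tests were chosen with earlier results of these data known. Named genes are the 8 members, the 3 largest differences among called genes of each list and the genes of a count of 5 or fewer, except 1 gene that is not reported here, and the 3 genes of highest r per member, among genes averaging 5 CPM or more in both experiments. Markers of dendritic cells, lymphocytes and neutrophils were summarized too (in part in the report): dendritic cell markers summed to 8.67 to 12.9 CPM in BMM libraries, B lymphocyte markers to 16.5 to 28.3 CPM in BMM and 0.0733 to 1.24 CPM in MSC libraries, and T and NK markers to 1.28 to 3.25 and 0.715 to 1.68. Promoter sequences are from RefSeq. Python 3.11.15 was used with numpy 2.4.6, pandas 2.3.3, scipy 1.17.1 and matplotlib 3.10.9.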

Additional observations from a re-analysis of the deposited data

How the results depend on the processing

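Of 416 values of single IRF genes under the alternatives, 404 kept their direction and their side of the call, which takes both limits together. Leaving out 1 library of a near-identical pair took no sample out of the fit. No alternative of a comparison with MSC+RAW-TW could leave out the 1 sample of that group. Of the 416, 39 lay on the other side of an adjusted p of 0.05 alone, 27 losing and 12 gaining it. With the GC and length trends removed, the signs turned for Irf1 (-0.29, 0.01 and 0.30 in MSC+RAW-TW against MSC, MSC+RAW-LPS-TW against MSC, and then MSC+RAW-LPS-TW compared with MSC+RAW-TW) and Irf2 (0.21 in MSC+RAW-TW against MSC). Signs also turned for Irf2 without OVX replicate 2 (0.03, range with 1 library left out -0.19 to 0.03) and without the first MSC+RAW-TW library (0.07, MSC+RAW-LPS-TW compared with MSC+RAW-TW), and for Irf1 (0.03) and Irf8 (0.03) in MSC+RAW-LPS-TW against MSC without MSC+RAW-LPS-TW replicate 2, where Irf1 was -0.11 and Irf8 -0.28 without replicate 3. None of these had passed the test, and the cause was not tested.

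Over all genes in OVX against sham, 1430 were called (931 higher, 499 lower), 578 with the GC and length trends removed (231 higher, 347 lower) and 2244 without the fold limit. With 1 library left out the count was between 343 (without OVX replicate 2) and 2309 (without sham replicate 1), and 717 without OVX replicate 1. In MSC+RAW-TW against MSC, 3474 were called, 2092 with those trends removed, 5926 without the fold limit and 2255 to 4240 with 1 library left out, the lowest without MSC replicate 2. In MSC+RAW-LPS-TW against MSC, 2212 were called and 4142 without the fold limit. Called IRF genes without the fold limit numbered 3, 4, 3 and 5 in the order of the report, against 1, 1, 1 and 2 with it. In MSC+RAW-LPS-TW compared with MSC+RAW-TW 1 was called with the trends removed. With 1 library left out the number was 1 to 2 in MSC+RAW-LPS-TW against MSC: Irf7 was added without MSC+RAW-LPS-TW replicate 2 and Irf5 without replicate 3. It was 2 to 3 in MSC+RAW-LPS-TW compared with MSC+RAW-TW, where Irf7 was added without MSC+RAW-LPS-TW replicate 3 (log2 fold change -1.09). A group left with 1 library was assumed to vary like the others. Of 364 counts per list under the alternatives, 346 stayed within 1.5 times.

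OVX and sham share replicate numbers, but the deviations of same-numbered libraries correlated at 0.41, -0.03 and 0.35, so the numbers were not taken as a pairing, and not every library correlated best with its own number. With the replicate number as a block and all libraries apart, 2117 genes were called, among them 1 IRF gene, against 1818 with all libraries apart and no block. In the MSC groups no paired analysis by replicate number was possible because, although the labels number the MSC replicates alike, the columns of MSC+RAW-TW and MSC+RAW-LPS-TW could not be matched to those numbers. Library identifiers in the column names form 2 series in each experiment, whose meaning is not given in the sources used here. The differences between series correlated across genes between groups at -0.03 to 0.09, and a block for the series, which could be fitted in both experiments and was added after the data were seen, left the number of called IRF genes at 1, 1, 1 and 2. Without the filter on low counts the all-gene median was -0.27 in MSC+RAW-TW against MSC and 0.19 in MSC+RAW-LPS-TW compared with MSC+RAW-TW. Depth limits Irf4, with 6 counts in each MSC+RAW-LPS-TW library, and the interferon genes.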
